A study of Mus musculus with 163 samples.

Results

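The genes described here are the cytosolic ribosomal proteins, the protein parts of the ribosome that translates mRNA in the cytoplasm. They were chosen by name: rows of the count table whose gene identifier maps to a mouse symbol that starts with Rpl or Rps followed by a digit, or that is Rplp0, Rplp1, Rplp2 or Rpsa, with S6 kinase genes (Rps6k) and names with -ps (pseudogenes) left out. The rule found 68 of the 21950 genes in the table, 41 with large subunit symbols (Rpl, Rplp) and 27 with small subunit symbols (Rps). Of these, 56 are the standard genes and 12 are copies or share only the symbol: Rpl3l, Rpl7l1, Rpl10l, Rpl22l1, Rpl32l, Rpl36al, Rpl37rt, Rpl39l, Rps4l, Rps27l, Rps23rg1 and Rps19bp1. Rps19bp1 encodes a nucleolar protein that binds RPS19 and is not part of the ribosome. The RefSeq gene table has 89 protein-coding symbols that meet the rule. The 22 of them without a row, among them Rpl3, Rpl7, Rpl39, Rps27a and Rpsa, were not analysed here.

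The study measured single mouse oocytes by Smart-seq2, which sequences polyadenylated RNA of a cell along its length, and asked which culture step leaves a mark on the transcriptome. Growing oocytes (GROs) and fully grown oocytes (FGOs) were taken from mice (24 GROs, 20 FGOs) or from culture. Cultured oocytes started from the BVSC-iPSC line (23 GROs, 24 FGOs), from cells of E12.5 embryonic gonads (24 GROs, 24 FGOs) or from follicles at 6 days post partum (dpp; 24 FGOs), 163 oocytes in all. The BVSC-iPSC line is 1 female induced pluripotent stem cell line from adult tail tip fibroblasts that carries Blimp1-Venus and Stella-ECFP reporters. Its primordial germ cell-like cells were made in vitro (a step called IVP) and put together with gonadal somatic cells of E12.5 Swiss Webster embryos into reconstituted ovaries (rOvaries) for differentiation (IVD). rOvaries of the gonad group held all cells of dissociated gonads. Follicles from both kinds of rOvary, and the 6 dpp follicles, were then grown in culture (IVG). Per the published methods, IVG was shorter for gonad-derived and 6 dpp follicles than for iPSC-derived ones. Somatic cells and the zona pellucida of every oocyte were removed before lysis. The labels and the published sequencing methods give no age for the mice behind the in vivo oocytes. The paper reports that iPSC- and gonad-derived GROs were larger than in vivo GROs. Growth ratios of the series thus start from GROs of different size, and so do comparisons of cultured with in vivo GROs. Oocyte size was not used here, and its part in the ratios was not tested. Germ cells left among the sorted gonadal somatic cells could give rise to oocytes in the iPSC rOvaries, and the cell line behind the iPSC groups and the IVP step cannot be told apart. In FGOs, the longer IVG of the iPSC group cannot be told apart from these either.

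An oocyte library held 2.17 to 13.7 M reads (M, 1e+06), with a median of 6.93 M reads. The labels name no mouse, embryo or culture behind an oocyte, so each group counts as 1 sample, no test or p-value is given, and no difference has a replicate check. Levels are CPM, the reads of a gene scaled to 1e+06 counted reads, of the pooled oocytes of a group, with 95% Poisson intervals that cover counting error only. Lowest, median and highest values over oocytes show the spread. The oocyte label held: the 12 oocyte markers summed to between 22496 CPM in iPSC-derived FGOs and 52368 CPM in in vivo GROs, and each of them had reads in every group. The 12 granulosa cell markers with a row summed to 131 to 421 CPM over the pooled groups, and a single 6 dpp FGO (replicate 12) had 1851 CPM. The 9 theca and stroma markers summed to 2.3 to 16.3 CPM, the 3 cumulus markers to at most 2.1 CPM and the 3 blood cell markers to at most 0.1 CPM. Of these, Ptx3, a cumulus marker, had no read in 5 groups and Hbb-bs, a globin of red blood cells, in 6. Values of the 3 GRO groups are given below in the order iPSC, gonad, in vivo, and those of the 4 FGO groups in the order iPSC, gonad, 6 dpp, in vivo.

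Every ribosome is built from a small subunit, which reads the mRNA, and a large subunit, which joins amino acids, and each subunit carries 1 copy of nearly every ribosomal protein. Their mRNAs are among the most abundant of most cells and begin with a run of pyrimidines at the cap, the 5′ terminal oligopyrimidine (TOP) motif, through which mTORC1 signalling and LARP1 set their translation. Growing mouse oocytes make and store ribosomes and mRNA for the embryo, and transcription stops in the fully grown oocyte. Most ribosomal protein genes also have processed copies elsewhere in the genome, and a few have expressed copies that are known from the germline, such as Rpl10l and Rpl39l.

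The start sites of the standard genes carried such a run more often than other genes did. RefSeq promoters (GRCm38.p6) were matched for 54 of the 68 genes. A C at the annotated start followed by at least 4 pyrimidines was present in 13 of 43 standard genes (30.2%), in 1 of 11 copies and in 2.95% of 6838 genes of the table that reached 10 CPM in a group. The windows below run from 15 bases before the start to 15 bases from it on, on the strand of the gene, and the capitals mark the longest pyrimidine run of at least 5 bases that starts with C near the start. The first 4 genes are standard genes with such a run, Rpl10l has a shorter run upstream, and the last 2 genes have none.
Rpl15 (chr14:18270972-18271001, minus strand): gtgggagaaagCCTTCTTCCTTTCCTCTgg
Rps6 (chr4:86857353-86857382, minus strand): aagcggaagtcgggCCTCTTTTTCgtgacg
Rpl38 (chr11:114668565-114668594, plus strand): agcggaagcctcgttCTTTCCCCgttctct
Rps27 (chr3:90213634-90213663, minus strand): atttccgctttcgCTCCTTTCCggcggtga
Rpl10l (chr12:66284387-66284416, minus strand): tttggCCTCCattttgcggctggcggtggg
Rpl7l1 (chr17:46782642-46782671, minus strand): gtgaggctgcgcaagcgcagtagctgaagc
Rps19bp1 (chr15:80264292-80264321, minus strand): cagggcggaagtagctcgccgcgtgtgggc
Within 10 bases of the start, a run of at least 5 pyrimidines beginning with C was found in 27 of 43 standard genes (62.8%) and in 7 of 11 copies (63.6%, Rps19bp1 included) against 37.2% of the genes at 10 CPM or more. In the 300 bases around the start, read on both strands, CCGGAAG was present in 41.9% of standard genes against 20.8%, AAGATGG in 18.6% against 8.82% and GGGCGG in 62.8% against 67.6%. TATAAA, read on the gene's strand, was present in 4.65% against 5.35%. These are matches of letters and say nothing of binding. Genes with a run within 10 bases and genes without one had medians on the same side of 0 in all 8 comparisons described below but gonad-derived against in vivo GROs, where they were -0.01 over 32 genes and 0.09 over 20 genes. The sizes of the medians differed. With and without a run they were -0.24 and -0.04 in growth in vivo, -0.31 and -0.18 in gonad-derived growth and 0.01 and 0.10 in iPSC-derived growth. In iPSC-derived against gonad-derived FGOs they were 0.30 and 0.25. These differences were not tested.

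Copies limit what was counted. Only reads with 1 placement in the genome were counted, so a gene with many processed copies loses reads, and levels of different genes are lower bounds to a different degree. Of each mRNA, the share of 75-base windows (the read length) that no other annotated transcript holds was taken from 1 GENCODE transcript per gene. That transcript and the deposited exonic length differed by over 1.5-fold in 12 genes, Rps20 and Rpl7l1 among them, so for these the share may not describe the exons that were counted. The median share was 63.8%, 19 genes had at least 80% and 28 genes had under 50%. Rps27, part of the small subunit, had the lowest share at 1.48%. Rpl7a shared windows with 64 annotated pseudogenes, the most of any member, against a median of 3. The mean level per length, in RPKM (CPM per kilobase of exon) over the 7 groups, had a median of 66.8 in the 19 genes with at least 80% unique windows and of 9.28 in the 28 genes with under 50% (Spearman 0.46 over 68 genes, which share libraries). A difference between groups compares 1 gene with itself. Medians of such differences in genes with many and with few unique windows are given below for growth, and they were not alike. The exposure of the differences to this was not tested.

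**Figure D1:**
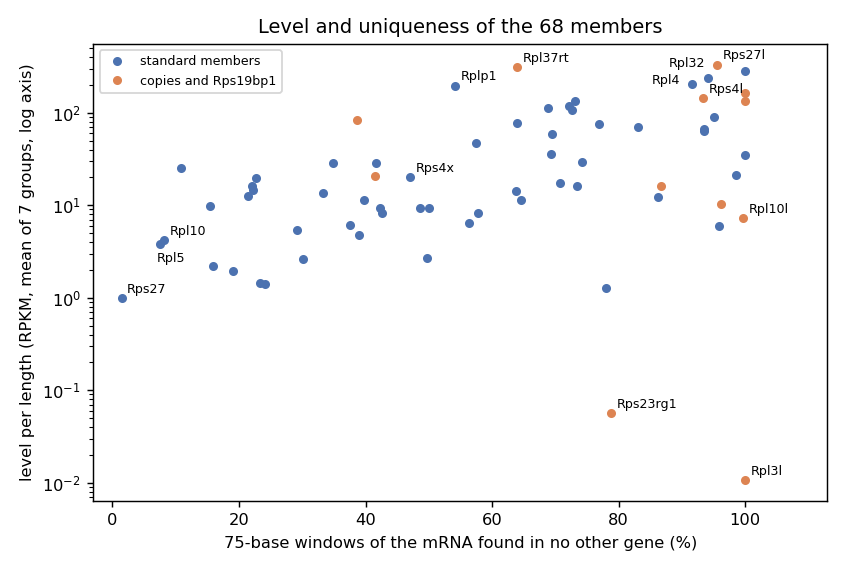
Level per length (RPKM, mean of 7 groups, log axis) of each of the 68 genes against the percentage of 75-base windows of its mRNA found in no other gene. Blue points are standard genes and orange points are copies and Rps19bp1; Rps27, with 1.48% of windows unique, sits at the left edge, and Rpl3l is nearly silent although all of its windows are unique.

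Among the genes with the highest level per length were 2 copies. Rps27l, a copy of Rps27 known as a p53 target, came first with 331 RPKM, then Rpl37rt, a retrotransposed copy of Rpl37, with 312. The standard genes Rpl32 and Rpl4 were also among the 5 highest, with 239 and 207 RPKM. Among the lowest were Rpl3l, the striated muscle copy of Rpl3, with 16 reads in all 163 oocytes, Rps23rg1 with 117 reads, and the standard genes Rps27 and Rpl21 with 0.987 and 1.26 RPKM. Counted per kilobase of unique windows instead (chosen after seeing the data), Rpl37rt came first and Rplp1 second. Rpl3l and Rps23rg1 did not pass the filter used below (at least 3 oocytes with CPM above 1, counted over the stage or, for growth, over both groups), and the other 66 genes passed it in all 8 comparisons.

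The 68 genes together took 0.299% to 0.372% of all reads, and the share was lower in FGOs than in GROs except in the iPSC groups. The pooled share was 0.353%, 0.367% and 0.372% in the GRO groups and 0.355%, 0.299%, 0.302% and 0.316% in the FGO groups. Binomial intervals were far narrower than the spread between oocytes (0.298% to 0.299% in gonad-derived FGOs). Gonad-derived FGOs ranged from 0.129% to 0.333% with a median of 0.306%, gonad-derived GROs from 0.294% to 0.456% with a median of 0.357%. These groups overlapped, but 18 of 24 gonad-derived GROs lay above every gonad-derived FGO. In vivo GROs ranged from 0.277% to 0.563% (median 0.361%) and in vivo FGOs from 0.277% to 0.414% (median 0.314%), and 1 of 20 in vivo FGOs lay above the GRO median. iPSC-derived FGOs (0.292% to 0.431%, median 0.350%) lay within the range of iPSC-derived GROs (0.285% to 0.469%, median 0.342%), and 18 of 24 of them were above every gonad-derived FGO. FGOs of 6 dpp follicles had the range 0.203% to 0.421% with a median of 0.304%. A smaller share of reads and fewer ribosomal protein mRNAs per oocyte cannot be told apart, since the table has no spike-in rows.

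**Figure D2:**
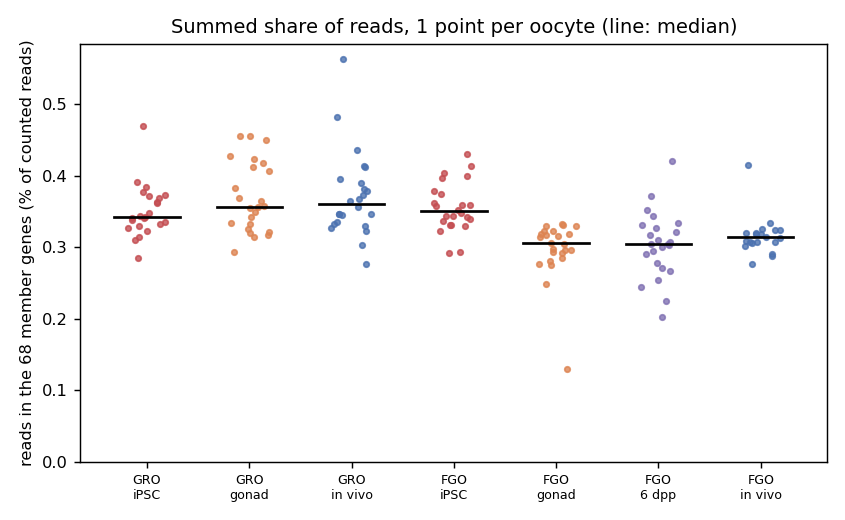
Summed share of counted reads (percent) in the 68 genes, with 1 point per oocyte and a line at the median of each of the 7 groups. Most gonad-derived, 6 dpp and in vivo FGOs sit below the GRO medians of 0.342% to 0.361%, and iPSC-derived FGOs sit around 0.350%.

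Single oocytes at the ends of these ranges differed in other ways. Gonad-derived FGO 19, the lowest of all at 0.129%, had 6.95 M reads and 10311 genes above 1 CPM against a group median of 10952. Without it the pooled share of the group was 0.306%. In vivo GRO 19, the highest at 0.563%, had 10619 genes above 1 CPM against a median of 11079 and a granulosa sum of 59.6 CPM. In vivo FGO 16, the highest of its group at 0.414%, had a granulosa sum of 590 CPM, against 383 CPM for the pooled group. The part of these features in the shares was not tested.

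Growth from GRO to FGO was the first comparison. In vivo, the ribosomal protein genes were slightly lower in FGOs: the median log2 ratio of the 66 genes was -0.19, against -0.11 over all 13148 genes that passed, and 16 of 66 were above 0 against 43.8% of all genes. In the gonad-derived oocytes the median was -0.31 against -0.05, with 6 of 66 above 0 against 46.7%. In the iPSC-derived oocytes it was 0.08 against -0.11, with 40 of 66 above 0 against 43.4%. Ratios were formed after adding 0.5 to the pooled CPM of both groups, which understates differences of low genes. The large subunit (33 genes) and the small subunit (23 genes) had like medians, -0.18 and -0.20 in vivo, -0.27 and -0.35 in gonad-derived and 0.08 and 0.15 in iPSC-derived oocytes. Over the 11 standard genes with at least 80% unique windows, the medians were -0.38, -0.34 and 0.02 in vivo, in gonad-derived and in iPSC-derived oocytes. Over the 26 standard genes with under 50% unique windows, they were -0.13, -0.24 and 0.10. Over all members with at least 80% unique windows, copies included (chosen after seeing the data), the iPSC-derived median was -0.02, and it was 0.02 over those whose transcript and deposited length were within 1.5-fold of each other, so its sign depends on the choice. The summed granulosa markers moved with growth too, from 131 to 173 CPM in the GRO groups to 330 to 421 CPM in the FGO groups, and their part in these ratios was not tested. Most of this sum was Esr2 and Cyp19a1, at 244 and 61.9 CPM in iPSC-derived FGOs. Of the granulosa markers that passed the filter, 9 of 11 were at least 1.5-fold higher in FGOs in vivo, 4 of 9 in the iPSC series and 7 of 10 in the gonad series. Of all genes, 18.7%, 15.2% and 14.7% were higher by that factor in these series. Gja1, a gap junction gene, had 1.61 CPM in in vivo GROs and 30.6 CPM in in vivo FGOs, and Fshr, the FSH receptor, had 3.23 and 2.55 CPM.

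Few members differed by a large factor. At least 2-fold lower in FGOs were 3 members in vivo (13.2% of all genes; 2 members without in vivo GRO 19), 4 in iPSC-derived (15.3%) and 5 in gonad-derived oocytes (9.98%). None of the members were at least 2-fold higher, against 10.4%, 6.69% and 5.82% of all genes. At 1.5-fold, 8 were lower and 1 higher in vivo (26.6% and 18.7% of all genes), 5 lower and 1 higher in iPSC-derived (27.6% and 15.2%), and 8 lower and 0 higher in gonad-derived oocytes (21% and 14.7%). In all 3 series the share of members past either fold was below that of all genes tested.

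**Figure D3:**
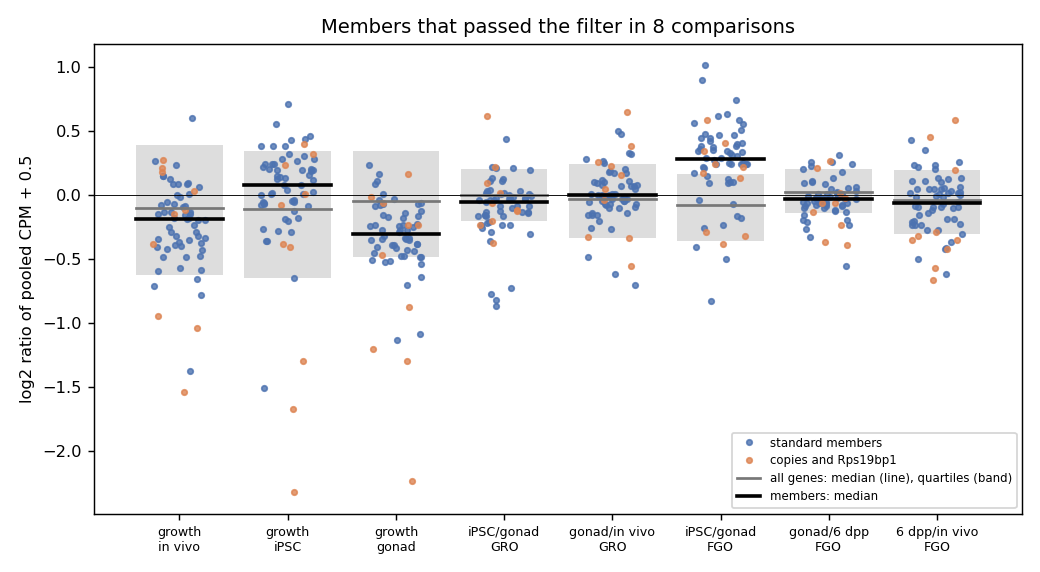
The log2 ratio of pooled CPM + 0.5 for the 66 members that passed the filter in each of 8 comparisons, with standard genes in blue and copies and Rps19bp1 in orange. Black lines are medians of the members, grey lines and bands the median and quartiles of all genes; the members lie above 0 most often in iPSC-derived over gonad-derived FGOs, with a median of 0.28.

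The members with the largest differences in growth were mostly copies. Rpl10l, an autosomal copy of the X-linked Rpl10 known for its role when the X is silent in male meiosis, was lower in FGOs of every origin. Its GRO level was 11.2 CPM in iPSC-derived (oocytes from 6.21 to 18.3, median 11.4), 13.0 in gonad-derived (4.90 to 27.4, median 12.1) and 16.5 in in vivo oocytes (10.5 to 23.0, median 16.6). Its level in the FGO groups was 1.84 CPM (0.286 to 3.37, median 1.93), 2.36 (0.654 to 5.07, median 2.30), 3.20 (0.872 to 6.16, median 3.10) and 5.37 CPM (1.08 to 12.3, median 4.08). GROs and FGOs of the iPSC groups did not overlap, 1 gonad-derived FGO reached into the gonad-derived GROs, and 16 of 20 in vivo FGOs were below every in vivo GRO. The log2 ratios of growth were -2.32 (iPSC), -2.24 (gonad) and -1.54 (in vivo). The last was -2.01 without the in vivo FGOs set apart for their stage or somatic markers (replicates 5, 7, 16, 19 and 22). The labels give no such stage, and the choice came from an earlier reading of these data. Those FGOs had 7.55 to 12.3 CPM of Rpl10l, so leaving them out makes the difference larger by itself. In vivo FGO 1, with 11.2 CPM, was kept. Poisson intervals of pooled values (1.64 to 2.06 CPM in iPSC-derived FGOs, 10.7 to 11.7 in iPSC-derived GROs) were far apart.

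The first 75 coding bases of Rpl10 and of Rps4x, the length of 1 read, are shown beside the same stretch of their copies, because these copies were among the members furthest lower in FGOs and a read can be assigned only where the pair differs. Sequences are on the mRNA strand from GENCODE transcripts (GRCm38). Capitals mark the bases at which the 2 members of a pair differ, 11 in the stretch for Rpl10 and Rpl10l and 12 for Rps4x and Rps4l.
Rpl10 (gene at chrX:74270816-74273135): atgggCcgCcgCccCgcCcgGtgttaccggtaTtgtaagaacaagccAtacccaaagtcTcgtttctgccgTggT
Rpl10l (gene at chr12:66283379-66284401): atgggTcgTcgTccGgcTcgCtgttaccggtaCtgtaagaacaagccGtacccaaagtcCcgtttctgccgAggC
Rps4x (gene at chrX:102184941-102189391): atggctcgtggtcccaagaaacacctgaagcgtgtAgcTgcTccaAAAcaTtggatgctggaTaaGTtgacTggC
Rps4l (gene at chr6:148354656-148355596): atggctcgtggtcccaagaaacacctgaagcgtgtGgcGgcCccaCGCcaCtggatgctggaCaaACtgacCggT
Over the whole coding sequence, the Rpl10 pair differed at 98 of 642 bases (84.7% identity) and the Rps4x pair at 161 of 789 bases (79.6%), in alignments with no gap. Of the windows of Rpl10l 99.7% were unique and of Rpl10 8.14%, so the copy was counted nearly whole and its parent in small part.

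Rps4l, a copy of the X-linked Rps4x that RefSeq lists as a transcribed pseudogene, was the most abundant of the copies that were lower in FGOs. GROs had 248 CPM (105 to 543, median 246) in iPSC-derived, 161 (78.5 to 254, median 155) in gonad-derived and 238 (125 to 495, median 199) in in vivo oocytes. FGOs had 77.5 (37.8 to 135), 65.4 (7.62 to 90.5), 85.9 (47.9 to 132) and 115 CPM (78.8 to 164). The ratios in growth were -1.67 in iPSC-derived, -1.30 in gonad-derived and -1.04 in in vivo oocytes, and the ranges overlapped in each. Without in vivo GRO 19, the oocyte with 495 CPM, the in vivo ratio was -0.98, which is no longer 2-fold, and without the in vivo FGOs set apart it was -1.12. Rps4x stayed between 22.0 and 25.6 CPM in all groups, the smallest ratio of highest to lowest group among the members (1.17). Per length, Rps4l made up 88.8% to 93.0% of the pair in GROs and 76.7% to 85.6% in FGOs.

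Rpl7l1, a nucleolar relative of Rpl7, was over 2-fold lower in FGOs of both cultured series. GROs and FGOs had 26.3 CPM (20.2 to 35.2) and 10.4 CPM (5.00 to 15.1) in iPSC-derived oocytes, which did not overlap. They had 22.5 (14.9 to 29.4) and 9.48 CPM (2.59 to 17.0) in gonad-derived oocytes, where 23 of 24 FGOs were below every GRO. In vivo it was 17.1 CPM (9.23 to 22.5) in GROs and 15.7 (7.57 to 27.1) in FGOs, a ratio of -0.12 beside -1.30 and -1.20. Without the 8 libraries set apart earlier (in vivo FGOs 5, 7, 16, 19 and 22, 6 dpp FGO 12 and gonad-derived FGOs 5 and 22, for their stage, somatic markers or depth), the in vivo FGO level was 13.5 CPM and the ratio -0.33. In vivo FGO 1, which was kept, had 25.1 CPM of Rpl7l1. Whether the ratios of the 3 series differ was not tested. Rps19bp1 had 207, 194 and 124 CPM in the GRO groups and 158, 106, 87.8 and 64.1 CPM in the FGO groups. Its ratios of growth were -0.38 (iPSC), -0.87 (gonad) and -0.94 (in vivo). The last was -1.15 without the libraries set apart, which is past 2-fold only with that choice. The in vivo FGOs left out had 68.4 to 110 CPM of Rps19bp1.

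Among standard genes, Rps23, a protein of the decoding centre, was lower in FGOs throughout, but at a low level. It had 2.94, 2.48 and 4.08 CPM in the GRO groups and 0.710, 0.856 and 1.27 CPM in the matching FGOs, with ratios of -1.51, -1.13 and -1.37. In vivo, 19 of 20 FGOs were below every GRO. Rps20, a protein of the small subunit head, was past 2-fold only in gonad-derived oocytes, with 51.4 CPM (33.8 to 72.8, median 49.5) in GROs and 23.9 (2.88 to 39.5, median 23.2) in FGOs, a ratio of -1.09. The same ratio was -0.66 in vivo and -0.29 in iPSC-derived oocytes. Rpl37a, of the large subunit, did not overlap between in vivo GROs (16.5 CPM, 12.8 to 31.7) and FGOs (9.39 CPM, 6.93 to 12.6), a ratio of -0.78.

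The members that stood highest in FGOs were of the large subunit. Rpl17 had 16.2 CPM (9.75 to 22.9) in in vivo GROs and 24.8 (19.0 to 31.5) in in vivo FGOs, a ratio of 0.60, and 15 of 20 FGOs were above every GRO. Rpl24 had 1.63 CPM (0.709 to 3.14) in iPSC-derived GROs and 2.98 (1.21 to 6.10) in iPSC-derived FGOs, a ratio of 0.71, and it was also the highest in gonad-derived growth with a ratio of 0.23. Rpl24 is counted over few unique windows (19.1%). Rpl4, the most abundant member in CPM, had 345 to 369 CPM in GROs and 360 to 447 CPM in FGOs, with ratios of 0.12 in vivo, 0.28 in iPSC-derived and -0.03 in gonad-derived oocytes.

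**Figure D4:**
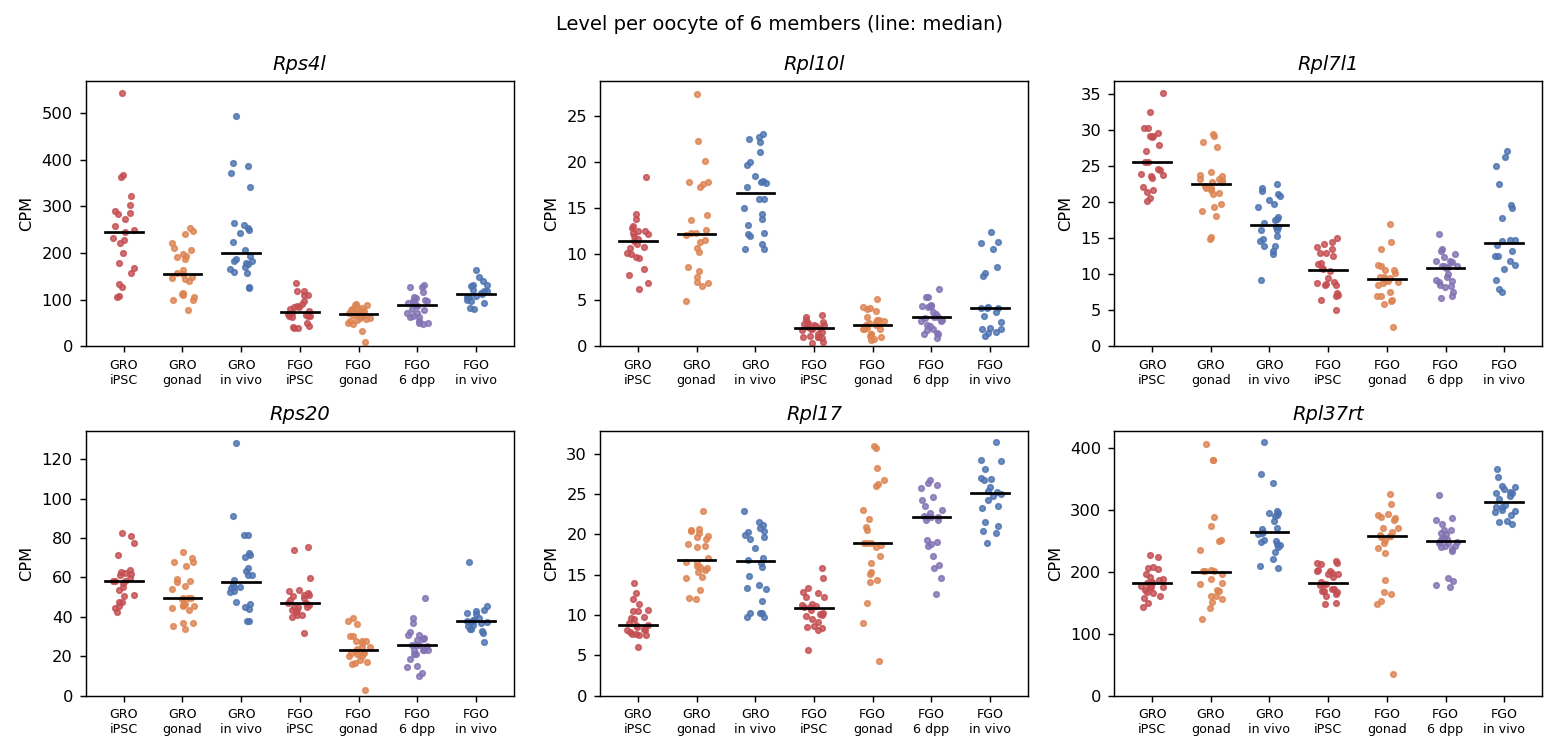
Level in each oocyte (CPM) of Rps4l, Rpl10l, Rpl7l1, Rps20, Rpl17 and Rpl37rt in the 7 groups, with a line at the median. Rps4l, Rpl10l and Rpl7l1 sit lower in FGOs of culture than in GROs, Rps20 sits lower in gonad-derived and 6 dpp FGOs, and Rpl17 sits lower in both iPSC groups than in the gonad-derived ones.

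For IVP, the step that makes germ cells from iPSCs, both cultured series were compared at each stage. In FGOs (IVP@FGO) the ribosomal protein genes were higher in the iPSC group. The median ratio was 0.28 against -0.08 over all 13582 genes, and 54 of 66 members were above 0 against 41.3% of all genes. Large and small subunit genes had medians of 0.31 and 0.27, and the 11 standard genes with at least 80% unique windows had a median of 0.36. Of the members, 6 were at least 1.5-fold higher, against 6.1% of all genes, and 1 was lower, against 13%. Without gonad-derived FGO 19, the number of members 1.5-fold higher was 4. Somatic markers moved in this comparison too: 2 of 12 granulosa markers and 1 of 6 theca and stroma markers that passed the filter were above 0, and Gja1 had 1.91 CPM in iPSC-derived and 8.29 CPM in gonad-derived FGOs. The summed granulosa level was 334 and 330 CPM, over oocytes from 239 to 438 and from 273 to 422 CPM, and the part of these markers in the ratios was not tested. In GROs (IVP@GRO) the median was -0.06 against -0.00 over 13422 genes, with 22 of 66 above 0 against 49.4%, 1 member 1.5-fold higher (6.69%) and 4 lower (5.98%). Growth of gonad-derived oocytes and IVP@FGO share the gonad-derived FGOs, so their medians of -0.31 and 0.28 are not independent of each other.

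These 6 members, higher in iPSC-derived FGOs, were of both subunits. Rps20 had 48.6 CPM (31.6 to 75.3, median 47.1) in iPSC-derived and 23.9 (2.88 to 39.5, median 23.2) in gonad-derived FGOs, a ratio of 1.01, and 23 of 24 iPSC-derived FGOs were above every gonad-derived one. Rps18, a protein of the small subunit head, had 13.6 CPM (8.09 to 21.3) against 7.03 (0.431 to 11.2), a ratio of 0.90, again with 23 of 24 above. Rpl28 had 6.76 CPM (4.51 to 10.8) against 3.85 (0.288 to 5.52), a ratio of 0.74 with 19 of 24 above. The X-linked Rpl36a had 2.89 against 1.69 CPM (0.63), Rpl41, the shortest ribosomal protein, 40.7 against 26.4 CPM (0.62) and Rps26, which lies at the mRNA exit channel, 89.8 against 59.7 CPM (0.59). Just below the 1.5-fold line was Rps19bp1 with a ratio of 0.58.

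Lower in iPSC-derived GROs were 4 members. Rpl17 had 9.27 CPM (6.04 to 14.0, median 8.80) in iPSC-derived and 17.3 (12.0 to 22.9, median 16.8) in gonad-derived GROs, a ratio of -0.87, with 20 of 23 iPSC-derived GROs below every gonad-derived one. In FGOs the same gene had 10.7 (5.66 to 15.9) against 19.4 CPM (4.31 to 31.0), a ratio of -0.83, the lowest of IVP@FGO. Rpl34 had 27.0 CPM (20.3 to 36.8) against 46.6 (32.3 to 71.5) in GROs, a ratio of -0.78 with 22 of 23 below, and -0.50 in FGOs. Rpl30, which also binds its own transcript in yeast, had 13.7 (10.4 to 18.7) against 24.6 CPM (13.9 to 35.9), a ratio of -0.82, and -0.24 in FGOs. Rps15a had 20.3 (14.4 to 26.1) against 33.9 CPM (21.0 to 55.9), a ratio of -0.73, and -0.18 in FGOs. It was counted over a deposited exonic length of 5334 bases, the longest of the members. Its 95.9% of unique windows came from a transcript of like length (5179 bases). Whether its reads came from a shorter mRNA was not tested. The 1 member higher was Rps4l with a ratio of 0.62, which was at 1.5-fold only with iPSC-derived GRO 8 (543 CPM) included. Over the 66 members, the ratios of IVP@GRO and IVP@FGO, taken from separate libraries, correlated with a Pearson r of 0.65 (Spearman 0.51), and over 12916 genes r was 0.57. The sign was the same in both for 32 of 66 members (48.5%) and for 64.3% of all genes.

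For IVD, gonad-derived oocytes were set beside in vivo GROs and beside FGOs of 6 dpp follicles. In GROs (IVD@GRO) the median of the members was -0.00 against -0.03 over all genes, with 32 of 66 above 0 against 46.6%. Of the members, 1 was at least 1.5-fold higher (9.94% of all genes) and 2 were lower (12.4%). Rps18 had 10.4 CPM (5.84 to 17.5) in gonad-derived and 17.1 (11.8 to 31.2) in in vivo GROs, a ratio of -0.70 with 15 of 24 below every in vivo GRO, and Rps23 had a ratio of -0.62. The member higher was Rps19bp1 with 194 CPM (131 to 274) against 124 (95.9 to 155), a ratio of 0.65 with 17 of 24 above. In FGOs (IVD@FGO) the median was -0.03 against 0.02, with 24 of 66 above 0 against 53.7%, and 0 members were past 1.5-fold in either direction, against 5.21% higher and 3.39% lower of all genes. The highest was Rpl19 with a ratio of 0.31 and the lowest Rps18 with -0.56 (7.03 against 10.6 CPM).

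For IVG, FGOs of 6 dpp follicles were compared with in vivo FGOs (IVG@FGO). The median was -0.06 against -0.04 over all genes, with 29 of 66 above 0 against 45.8%. At 1.5-fold, 0 members were higher (5.21% of all genes) and 2 were lower (10.8%): Rpl10l with a ratio of -0.66 and Rps20 with -0.61, 25.3 CPM (10.2 to 49.7) in 6 dpp and 39.0 (27.4 to 67.8) in in vivo FGOs, where 15 of 24 were below every in vivo FGO. Rpl10l in vivo was spread over a wide range of 1.08 to 12.3 CPM. Without the 8 libraries set apart, which include in vivo FGOs high in Rpl10l, its ratio was -0.17. The number of members 1.5-fold lower was then 0, and 1 member, Rps19bp1, was higher with a ratio of 0.66. Close to the line lay Rps27l with 224 against 149 CPM (0.58), where 16 of 24 were above every in vivo FGO, and Rpl7l1 with 10.4 against 15.7 CPM (-0.57).

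The P stalk, the flexible arm of the large subunit that recruits elongation factors, is made of RPLP0, RPLP1 and RPLP2. Rplp0 had 162 to 170 CPM in GROs and 162 to 206 CPM in FGOs, Rplp1 119 to 140 and 97.2 to 112 CPM, and Rplp2 47.4 to 53.4 and 43.8 to 54.5 CPM. In growth, Rplp0 was between 0.11 and 0.32, Rplp1 between -0.52 and -0.08 on the log2 scale in the 3 series, and Rplp2 between -0.27 and 0.20. Rpl5 and Rpl11, which with 5S rRNA form the particle that can bind MDM2, had 7.56 to 9.95 and 3.18 to 4.60 CPM over the 7 groups, with few unique windows (7.51% and 39.0%). The X-linked members Rpl10, Rps4x and Rpl36a had ratios between -0.48 and 0.38 in growth. In IVP@FGO all 3 were above 0, from 0.13 to 0.63.

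Copies and parents were compared per length in the pooled groups. Rpl10l made up 67.3%, 72.5% and 77.0% of the Rpl10 pair in the GRO groups and 30.8%, 41.0%, 48.2% and 53.1% in the FGO groups. Medians over oocytes were 48.8% in 6 dpp and 45.4% in in vivo FGOs, so the order of these groups depends on pooling. Rpl10 itself had 3.44 to 5.51 CPM. Rpl37rt made up 86.6% to 93.9% of the Rpl37 pair, with the lowest share in iPSC-derived FGOs (81.1% to 89.1% over oocytes) and the highest in in vivo FGOs (92.6% to 95.5%), which did not overlap. Its level was 183, 216 and 271 CPM in the GRO groups and 185, 241, 245 and 313 CPM in the FGO groups. Rps27l (99.6% to 99.8% of its pair) and Rpl36al (88.1% to 91.2%) had parents with few unique windows (1.48% and 15.4%, against 95.6% and 38.7% in the copies), so the parents were undercounted more. The same holds for Rpl10l and Rpl10 (99.7% and 8.14%) and for Rps4l and Rps4x (93.3% and 47.1%). Rpl22l1 made up 46.6% to 54.8% of the Rpl22 pair, where the copy was undercounted more (41.4% unique windows against 98.6%), and Rpl32l 6.01% to 6.53% of the Rpl32 pair. Rpl39l, the germline copy of Rpl39, had 109 to 188 CPM and no parent row to compare with. The pairs of Rpl32l, Rpl37rt and Rps23rg1 were added after seeing the data.

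The members were also compared over the oocytes of each group. Each member of at least 10 CPM was correlated, within a group, with the summed share of the other members. The median Pearson correlation was 0.62, 0.73 and 0.80 in the GRO groups and 0.67, 0.91, 0.79 and 0.62 in the FGO groups. Oocytes of a group may differ in depth and handling, whose part was not tested. The summed share correlated with depth at -0.42 in gonad-derived GROs to 0.32 in iPSC-derived GROs, the lowest and highest of the groups. Without the lowest and highest oocyte of each group the medians were 0.37 to 0.68. That of gonad-derived FGOs was then 0.49 over 22 oocytes. Rps15 followed the others closely in in vivo GROs (0.96, and 0.93 without those oocytes). Rpl7l1 varied between groups, with -0.15 in iPSC-derived GROs, -0.54 in in vivo GROs and -0.39 in iPSC-derived FGOs (-0.16, -0.50 and -0.49 without them), but it was above 0 in gonad-derived GROs (0.29, and 0.25 without them) and in 6 dpp FGOs (0.17 and 0.42). In gonad-derived FGOs, the lowest and highest oocyte (replicates 19 and 9) were left out together. Rpl36al had 0.98 with all oocytes and 0.89 without them, and Rps27l turned from -0.67 to 0.30. The median coefficient of variation of members of at least 10 CPM was 12.6% to 23.3%, beside 17.4% to 23.3% over all genes of that level. Rpl4 was the steadiest member in gonad-derived and in vivo GROs (6.20% and 8.37%), and Rps4l varied most in both iPSC groups and in in vivo GROs (34.8% to 40.7%).

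Other genes of translation were described from lists. Of 32 translation factors, 6 were at least 1.5-fold lower and 0 higher in growth in vivo (26.6% and 18.7% of all genes), 3 lower and 2 higher in iPSC-derived growth (27.6% and 15.2%) and 3 lower and 0 higher in gonad-derived growth (21% and 14.7%). In IVP@FGO, 24 of 32 were above 0, against 41.3% of all genes, with a median of 0.14. Eif6, which keeps the subunits apart, had 279 CPM in iPSC-derived against 169 in gonad-derived FGOs (0.72), while Eif3j1, of the eIF3 complex, had a ratio of -0.92. A list of 15 genes known for TOP mRNAs or for fusion to a ribosomal protein, 6 of them among these translation factors and 3 among the chaperones below, had a median of 0.23 in IVP@FGO. All 15 were above 0, against 41.3% of all genes, and 0 were past 1.5-fold, against 6.1% of them higher and 13% lower. In growth their medians were -0.16 in vivo, 0.13 in iPSC-derived and -0.10 in gonad-derived oocytes. Pabpc1, the poly(A)-binding protein, was far below the rest of that list, with 24.1, 19.0 and 22.4 CPM in the GRO groups and 4.37, 4.00 and 7.86 CPM in the matching FGOs. Its ratios were -2.33, -2.12 and -1.45.

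Genes that assemble ribosomes were counted in the same way. For all genes, the shares at least 1.5-fold lower and higher were 26.6% and 18.7% in growth in vivo, 27.6% and 15.2% in iPSC-derived growth and 21% and 14.7% in gonad-derived growth, and the counts below are to be read against these. Of 41 genes of ribosome biogenesis, 9 were at least 1.5-fold lower and 2 higher in growth in vivo, 8 and 7 in iPSC-derived and 8 and 5 in gonad-derived growth, so the lower ones were near or below the share of all genes. Their median in IVP@FGO was 0.04 with 25 of 41 above 0, against a median of -0.08 and 41.3% above 0 over all genes. Nop2, an rRNA methyltransferase, had 49.4 CPM in in vivo GROs and 14.7 in FGOs (-1.71), and Nat10, an RNA acetyltransferase, 21.6 and 41.4 CPM (0.93). Of 10 RNA polymerase I genes, 3 were at least 1.5-fold lower and 0 higher in growth in vivo, 4 and 0 in iPSC-derived and 4 and 0 in gonad-derived growth, and the in vivo count is about the share of all genes. Ubtf, which opens rDNA to polymerase I, had 62.9 CPM in in vivo GROs and 24.8 in FGOs (-1.33). Of 9 chaperones of ribosomal proteins, 4 were lower and 0 higher in growth in vivo, 2 and 1 in iPSC-derived and 3 and 0 in gonad-derived growth. Their medians were -0.53, -0.04 and -0.24 in these series and 0.21 in IVP@FGO, where 7 of 9 were above 0, against 41.3% of all genes. Heatr3, which brings RPL5 to the nucleus, was higher in the iPSC groups at both stages, 30.9 against 15.7 CPM in GROs (0.95) and 16.8 against 5.52 in FGOs (1.52).

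Of 12 regulators of TOP mRNAs and mTORC1, 8 were at least 1.5-fold lower and 0 higher in growth in vivo, 7 and 1 in iPSC-derived and 3 and 0 in gonad-derived growth, beside the shares of all genes just given. Eif4ebp1, which encodes an eIF4E-binding protein, had 29.9 CPM in in vivo GROs and 5.04 in FGOs (-2.46). Larp1, which binds TOP mRNAs, had 8.14 and 3.17 CPM (-1.24). Of 6 genes of ribosome dormancy, 2 were lower and 1 higher in growth in vivo, again beside 26.6% and 18.7% of all genes. Ifrd2 was higher in the iPSC groups with ratios of 1.04 in GROs and 1.06 in FGOs. Trp53, Mdm2 and Mdm4, the p53 pathway that free ribosomal proteins can act on, had ratios of 0.33, -0.25 and 0.98 in growth in vivo, and Trp53 had 91.5 against 60.3 CPM in IVP@FGO (0.60).

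Outside the listed genes, 5 had levels over the 7 groups most like the summed share of the members, among 6196 genes of at least 10 CPM in every group. They were Bola2 (Pearson 0.99 over 7 groups), Ndufb11 and Ndufb2, subunits of respiratory complex I, Tdrp and Atp5md. Bola2 had 65.7, 72.8 and 72.8 CPM in the GRO groups and 64.0, 46.6, 48.1 and 55.9 CPM in the FGO groups. With 7 points and so many candidates, such correlations are a description only.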

How the data were processed

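Libraries were made by Smart-seq2 from single oocytes. Per the labels and the published methods, the authors aligned single-end reads with STAR to GRCm38 (mm10) with spike-in sequences and counted uniquely mapped reads with QuasR over the exons of 1 randomly chosen transcript per gene, and deposited these raw counts with an exonic length (width) per gene. Strand use is not stated, so overlapping genes are uncertain. The deposited counts were not normalized by the authors. Symbols were matched through the RefSeq gene table of GRCm38.p6 (21907 of 21950 identifiers).

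Counts of a group were pooled to CPM with exact Poisson intervals (95%), and shares have exact binomial intervals. Both cover counting error only, since reads carry no molecular identifiers. Ratios used a pseudocount of 0.5 CPM. Genes entered with CPM above 1 in at least 3 oocytes. Members called were at least 1.5-fold (2-fold in growth) higher or lower. The study fitted oocytes chosen by size with edgeR, and that choice was not applied here. Named members were those past the fold, at most 5 each way, the 5 of highest and lowest level per length, the copies, P stalk, 5S particle and X-linked genes. Some members that meet this rule are not reported here by name. Members and lists were chosen with earlier results of these data known. Python 3.11.15 with pandas 2.3.3, numpy 2.4.6 and scipy 1.17.1, and edgeR 4.0.16 and DESeq2 1.42.0 in R 4.3.3 (scaling factors only) were used. The pooling code was tested on simulated data. Unique windows of 75 bases came from GENCODE transcripts, and genome copies without annotation were not searched. Correlations without the lowest and highest oocyte, ratios of single members without libraries set apart or without in vivo GRO 19, and medians by length match were chosen after seeing the data.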

Additional observations from a re-analysis of the deposited data

How the results depend on the processing

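Each result was recomputed under up to 14 alternatives, the lowest and the highest value with 1 oocyte left out counting as 2 of them: other scalings (edgeR TMM, DESeq2 size factors, totals without the members), means or medians over oocytes, pseudocounts of 0.1 and 2 CPM, no filter or a filter at 10 CPM, without copies and Rps19bp1, without 8 libraries that an earlier reading had set apart, each oocyte left out in turn, and, chosen after seeing the data, only the genes with at least 80% unique windows. A value counted as moved when it shifted by more than 1 SD of the summed share over oocytes (log2 for ratios), and a count when it left the 1.5-fold range. Of 112 medians, 111 were the same by this rule, and the median of growth in vivo moved to -0.38 with at least 80% unique windows. The rule also counted the sign changes given below as the same, so it says little of medians close to 0. Sign was kept in 14 of 14 alternatives for growth in vivo, gonad-derived growth, IVP@GRO and IVP@FGO (0.21 to 0.32), and in 9 of 14 for IVD@GRO. It turned for iPSC-derived growth (-0.02) and IVG@FGO (0.05) with at least 80% unique windows, and for IVD@FGO (0.01) with medians over oocytes. Scaling by TMM or DESeq2 moved the median of all genes by at most 0.07. Without copies and Rps19bp1 the pooled shares were 0.244%, 0.259% and 0.263% in the GRO groups and 0.267%, 0.214%, 0.215% and 0.224% in the FGO groups (same order as above).

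Counts of called members are small and moved as follows. Higher at 1.5-fold: growth in vivo 0 (medians, pseudocount 2, 80% unique), iPSC-derived growth 2 (TMM, DESeq2) and 0 (pseudocount 2, 10 CPM, 80% unique), IVP@GRO 2 (medians) and 0 (means, without copies), IVD@GRO 2 (pseudocount 0.1) and 0 (without copies), IVP@FGO 3 (pseudocount 2) and 1 (80% unique), and IVG@FGO 1 (TMM, DESeq2, medians, pseudocount 0.1, without the 8 libraries). Lower at 1.5-fold: growth in vivo 5 and gonad-derived growth 4 (without copies), iPSC-derived growth 3 (10 CPM, 80% unique) and 2 (without copies), IVP@GRO 1 (80% unique), IVD@GRO 1 (pseudocount 2, 10 CPM) and 0 (80% unique), IVP@FGO 2 (medians) and 0 (80% unique), IVD@FGO 1 (TMM, means), and IVG@FGO 0 (medians, without the 8 libraries) and 1 (pseudocount 2, 10 CPM, without copies). Lower at 2-fold without copies: 1 in vivo, 1 in iPSC-derived and 2 in gonad-derived growth. With fewer genes or oocytes a lower count follows from the choice itself, and otherwise the cause was not tested. Leaving out 1 oocyte gave 0 to 1 higher in growth in vivo (0 without in vivo GRO 2), 0 to 1 higher in IVP@GRO (0 without iPSC-derived GRO 8), 1 to 3 lower in IVD@GRO (1 without in vivo GRO 21), 4 to 8 higher in IVP@FGO, 0 to 1 lower in IVD@FGO (1 without gonad-derived FGO 9), and 0 to 1 higher and 1 to 3 lower in IVG@FGO (1 higher without 6 dpp FGO 1, 1 lower without 6 dpp FGO 18). No paired analysis was possible because the replicate numbers only name oocytes and no test was run.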
